A study of Mus musculus with 10 samples.

Results

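Endothelial cells line the vessels and chambers of the heart, and 35 genes that mark them were followed in the hearts of young mice in which the gene Chmp4b was targeted. The 35 genes were taken by name from the 55858 genes of the deposited table. They form 4 groups: 18 pan-endothelial genes, 7 capillary genes, 3 arterial or tip cell genes and 7 transcription factors. All 35 had at least 1 TPM (the deposited measure of level, a read count divided by gene length and scaled to 1 total in every library) in each of the 10 libraries. All 35 therefore entered the tests, which covered 13282 genes with at least 1 TPM in at least 5 libraries.

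RNA was taken from whole hearts at postnatal day 10, from 5 mice in each of 2 groups. Both groups had the genotype labelled MCM; Chmp4bF/F, that is, floxed alleles of Chmp4b, which encodes a subunit of the membrane-cutting complex ESCRT-III. Hearts called cKO came from pups given tamoxifen under the skin, 0.1 mg/g on each of 2 days beginning at postnatal day 0. Hearts called control came from pups of the same genotype given corn oil. Tamoxifen itself and the loss of Chmp4b therefore cannot be told apart, and the promoter that drives MCM is not given in the sources used here. The study's title places these hearts in a question about ESCRT and the formation of cardiac T-tubules. In whole tissue, fewer endothelial cells and less of a transcript in each cell cannot be told apart.

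The endothelium of the growing heart is shaped by receptors for vascular endothelial growth factor (VEGF), angiopoietins and apelin, by Notch ligands and receptors, and by transcription factors of the ETS and SOX families. Sprouting tip cells of growing vessels make apelin, whose receptor marks capillary and venous cells. Mature heart capillaries take up fatty acids for the muscle beside them and largely lack the diaphragms found in leaky vessels.

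Mitochondrially encoded genes held 39.4% ± 2.34 (SD, n = 5) of the summed TPM in cKO and 55.4% ± 3.96 in control hearts (exact two-sided permutation test over 252 splits, p = 0.00794, the smallest this design allows). The TPM values of a library add up to 1 fixed sum, and the median log2 difference of all tested genes was 0.63 as deposited. Each gene was therefore also given relative to the median gene (a size factor per library, after which that median was 0.01) and relative to 27 other endothelial genes that are not among the 35 (after which it was 0.47). Chmp4b was at 38.2 ± 1.42 TPM in cKO and 47.4 ± 8.61 TPM in control hearts as deposited, with overlapping groups, and at 29.5 ± 1.38 and 60.8 ± 6.51, without overlap, relative to the median gene. The cKO libraries held 13578 to 14011 genes at 1 TPM or more and the control libraries 12354 to 12753, without overlap. The cKO libraries 1, 5 and 7 held 47.6 to 65.9 TPM of Xist and 0.0507 to 0.0792 TPM of Ddx3y, while the cKO libraries 3 and 6 and all control libraries held 16.7 to 32.8 TPM of Ddx3y, so the groups also differed in these markers of sex. Counts are given below with all libraries and with the cKO libraries 3 and 6 alone.

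The start regions of 4 of these genes are shown because they stand for the main contrast among the members: Apln and Robo4 were called lower in cKO hearts on every scale, and the VEGF receptors Kdr and Flt1 were not called relative to other endothelial genes. Each sequence is the stretch just before the gene's annotated start, from RefSeq on build GRCm38.p6, read 5′ to 3′ on the gene's strand. Capitals mark matches to the core motif of ETS factors (AGGAAG or CGGAAG on either strand). The stretches are chrX:48034854-48035103 on the minus strand for Apln, chr9:37401722-37401896 on the plus strand for Robo4, chr5:75978459-75978705 on the minus strand for Kdr and chr5:147726012-147726261 on the minus strand for Flt1.
Apln: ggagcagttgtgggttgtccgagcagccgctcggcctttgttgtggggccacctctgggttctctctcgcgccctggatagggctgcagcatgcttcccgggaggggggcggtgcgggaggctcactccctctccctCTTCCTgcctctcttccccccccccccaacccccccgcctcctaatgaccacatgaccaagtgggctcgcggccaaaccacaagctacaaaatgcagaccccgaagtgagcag
Robo4: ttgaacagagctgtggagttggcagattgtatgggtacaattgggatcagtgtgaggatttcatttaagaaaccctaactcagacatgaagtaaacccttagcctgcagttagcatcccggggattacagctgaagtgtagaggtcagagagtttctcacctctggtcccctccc
Kdr: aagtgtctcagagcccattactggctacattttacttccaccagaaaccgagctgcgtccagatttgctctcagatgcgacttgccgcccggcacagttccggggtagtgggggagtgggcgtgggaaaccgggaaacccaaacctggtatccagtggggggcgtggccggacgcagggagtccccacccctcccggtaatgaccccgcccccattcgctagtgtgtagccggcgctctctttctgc
Flt1: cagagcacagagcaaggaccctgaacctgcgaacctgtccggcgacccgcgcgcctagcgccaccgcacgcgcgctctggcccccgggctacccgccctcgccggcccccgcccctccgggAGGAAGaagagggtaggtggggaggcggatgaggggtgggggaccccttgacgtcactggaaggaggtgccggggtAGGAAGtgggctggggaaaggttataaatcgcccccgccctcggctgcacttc
Apln held 1 such match, 113 bases before its start, and Flt1 held 2, at 129 and 53 bases. Robo4 held 1, at 49 bases, which lies inside the annotated gene and so outside the stretch printed for it. Kdr held none in its window. RefSeq windows (250 bases before to 50 after a start) were at hand for 17 of the 35 members. Only the 250 bases before a start were searched, and there 10 of the 17 held an ETS core match, against 42.5% of 27025 genes of any kind. A core of the hypoxia response element (ACGTG or GCGTG on either strand) stood in 7 of the 17, against 41.5% of genes, and Kdr and Flt1 but not Apln or Robo4 were among them. Such a match is a run of letters and not a measured binding site.

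As deposited, most members were close to their control level. Groups were compared as log2(TPM + 1), which understates the change of genes with low values, and called means an adjusted p under 0.05 in limma (Benjamini-Hochberg, over all tested genes). Of the 35, 10 were called higher in cKO hearts, 2 were called lower and 23 were not called, with a median log2 difference of 0.11. Over all 13282 tested genes, 76.5% were called higher and 3.46% lower (80.0% in either direction). The log2 difference was within 0.25 of 0 for 22 of the 35 members, against 14.3% of all tested genes. The genes called higher were Plvap, Aplnr, Vwf, Ramp2, Ets1, Notch1, Dll4, Tal1, Eng and Mmrn2, and those called lower were Apln and Robo4. The libraries of the 2 groups did not overlap for 8 members, 6 higher (Plvap, Aplnr, Vwf, Ramp2, Eng and Mmrn2) and 2 lower (Apln and Robo4), against 62.5% and 1.92% of all tested genes. With the cKO libraries 3 and 6 alone, 5 of the 10 remained called higher and both Apln and Robo4 remained called lower. After mitochondrially encoded genes were removed and each library was closed again, 3 members were called higher and 22 lower.

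Relative to the median gene, the endothelial genes as a body stood lower in cKO hearts. There 28 of the 35 were called lower, 1 (Plvap) was called higher and 6 were not called, with a median log2 difference of -0.60. Over all tested genes on that scale, 20.8% were called lower and 20.8% higher (41.6% in either direction). The libraries of the 2 groups did not overlap for 23 members, all lower in cKO, where 15.5% of all tested genes were lower and 15.8% higher without overlap (31.3% in all). With the cKO libraries 3 and 6 alone, 23 of the 28 remained called lower, and Plvap was no longer called. Cardiomyocyte markers moved with them: 12 of 12 were called lower on this scale, with a median log2 difference of -0.92, and their part in the endothelial values was not tested.

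Relative to other endothelial genes, 25 of the 35 members were not called, 5 were called higher and 5 lower, with a median log2 difference of -0.09. Over all tested genes 66.1% were called higher and 6.0% lower on that scale (72.1% in either direction). The 27 genes whose mean sets the scale differed among themselves: on it 6 were called higher and 7 lower. Their log2 differences ran from -0.62 to 0.73. A call here is thus relative to their mean and not to 1 level common to endothelial genes. Apln, Robo4, Icam2, Cav1 and Sox17 were the members called lower, and Plvap, Aplnr, Vwf, Ramp2 and Ets1 those called higher. Without overlap, 5 members were higher and 4 lower, against 50.5% and 3.87% of all tested genes. With the cKO libraries 3 and 6 alone, Plvap, Aplnr and Vwf remained called higher and Apln, Robo4, Icam2 and Cav1 remained called lower. The plot of members on the 3 scales shows how the body of genes shifts from one scale to the next while Apln and Robo4 stay to the left and Plvap to the right.

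**Figure D1:**
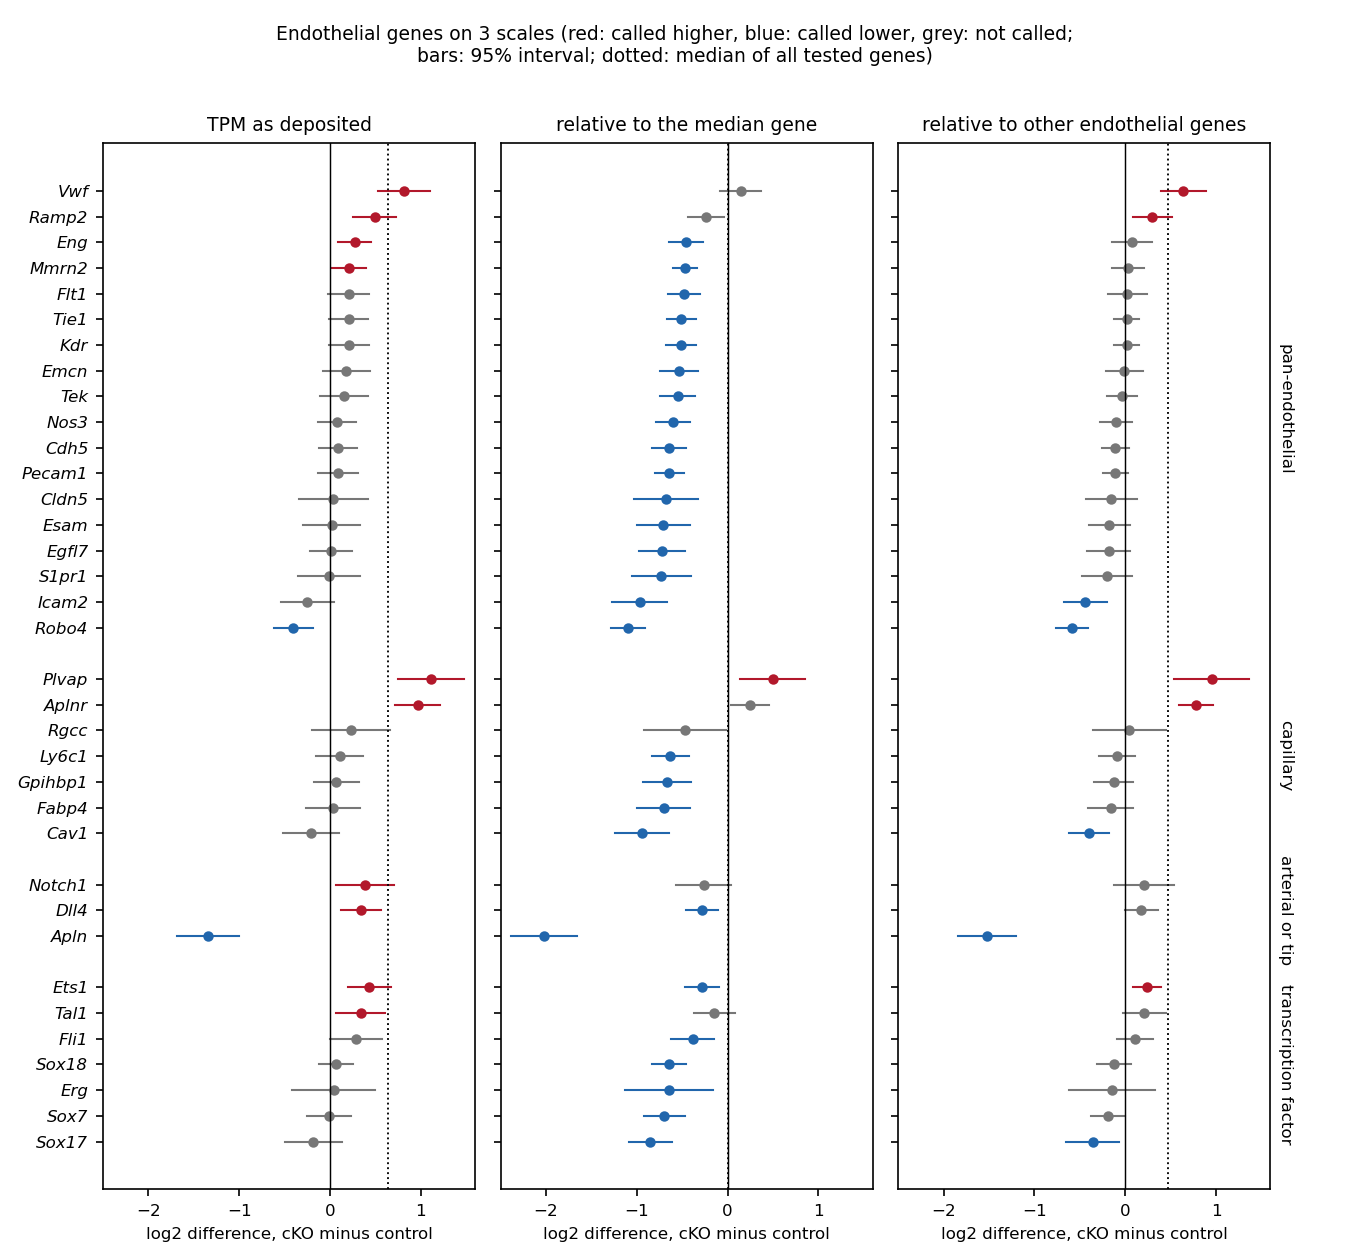
Log2 difference (cKO minus control, log2(TPM + 1)) of the 35 endothelial genes on 3 scales, with points for estimates, bars for 95% intervals, red for called higher, blue for called lower, grey for not called, and a dotted line at the median of all tested genes. Most genes lie near 0 as deposited and relative to other endothelial genes but lie below 0 relative to the median gene, where 28 were called lower.

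Among the pan-endothelial genes, junction and adhesion proteins set the common pattern. In each list below, cKO values are those of libraries 1, 3, 5, 6 and 7 and control values those of libraries 4, 6, 8, 9 and 13. Pecam1 (CD31, an adhesion molecule of endothelial contacts, chr11:106654217-106750628 (-)) was at 67.8, 63.4, 72.1, 70.9 and 71.1 TPM in the cKO libraries and 60.5, 74.5, 75.1, 64.1 and 53.0 TPM in the control libraries. Cdh5 (VE-cadherin, the cadherin of endothelial junctions, chr8:104101625-104144511 (+)) was at 79.8, 68.5, 76.5, 84.6 and 76.2 TPM in the cKO libraries and 63.8, 70.2, 84.7, 79.9 and 65.4 TPM in the control libraries. For both genes the cKO libraries lay within the spread of the control libraries. The log2 difference as deposited was 0.09 ± 0.10 (SE; limma adjusted p = 0.444) for Pecam1 and 0.09 ± 0.10 (SE; limma adjusted p = 0.42) for Cdh5. Both fell relative to the median gene, by 0.64 ± 0.07 (SE; limma adjusted p = 2.99e-05) and 0.64 ± 0.09 (SE; limma adjusted p = 9.73e-05) on the log2 scale, and the groups no longer overlapped. Relative to other endothelial genes the intervals of the difference were -0.25 to 0.03 for Pecam1 and -0.25 to 0.04 for Cdh5, so neither was called.

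The other junction genes followed, with 1 exception. Esam, another endothelial adhesion molecule, was at 48.0 ± 7.91 TPM in cKO and 47.4 ± 9.15 TPM in control hearts, and Cldn5, a tight junction claudin, at 34.4 ± 6.80 TPM in cKO and 33.7 ± 8.12 TPM in control hearts. Both overlapped as deposited, and both were called lower relative to the median gene, at log2 differences of -0.71 and -0.68. Icam2, an adhesion molecule that binds leukocyte integrins, stood apart: it was at 25.4 ± 5.06 TPM in cKO and 30.1 ± 4.02 TPM in control hearts, and it was called lower relative to the median gene, at -0.97 ± 0.14 (SE; limma adjusted p = 0.000176), and relative to other endothelial genes, at -0.44 ± 0.11 (SE; limma adjusted p = 0.00314). Relative to other endothelial genes its groups did not overlap, at 20.3 to 28.4 in the cKO and 29.1 to 34.2 in the control libraries. As deposited it was not called, but it was called lower without cKO library 6 (limma adjusted p = 0.0313) and with library weights (limma adjusted p = 0.0436). Without mitochondrially encoded genes it was also called lower, at -0.69 (limma adjusted p = 0.000431). Among the cKO libraries it was lowest in 1, 3 and 5 and higher in 6 and 7.

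The receptors for VEGF and the angiopoietins were called on 1 scale. Kdr (VEGF receptor 2, the main signalling receptor) was at 38.7 ± 1.91 TPM in cKO and 33.6 ± 4.59 TPM in control hearts. Flt1 (VEGF receptor 1, which binds VEGF with high affinity and can act as a decoy) was at 12.9 ± 1.45 TPM in cKO and 11.1 ± 1.29 TPM in control hearts. Tek (the angiopoietin receptor TIE2) was at 17.4 ± 1.15 TPM in cKO and 15.8 ± 2.99 TPM in control hearts and its partner Tie1 at 31.1 ± 2.42 TPM in cKO and 26.9 ± 3.28 TPM in control hearts. None of the 4 was called as deposited, and each was called lower relative to the median gene, at log2 differences from -0.55 for Tek to -0.48 for Flt1. Leaving out 1 library brought 3 of them past the threshold as deposited, all higher in cKO: Kdr without control library 6 or 8, Tie1 without cKO library 3 or control library 6, and Flt1 without cKO library 7 (limma adjusted p from 0.0322 to 0.0475). Relative to other endothelial genes their log2 differences lay between -0.04 for Tek and 0.02 for Flt1, and the widest of their 95% intervals, that of Flt1, ran from -0.19 to 0.24. Ratios within a library, which need no scale, overlapped: Kdr to Flt1 was 2.59 to 3.46 in cKO and 2.82 to 3.52 in control libraries, and Tek to Tie1 was 0.540 to 0.571 and 0.498 to 0.642.

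Robo4, a guidance receptor of endothelium that steadies vessels (chr9:37401897-37415115 (+)), was lower in cKO hearts whatever the scale. It was at 12.4, 11.6, 12.0, 14.0 and 13.7 TPM in the cKO libraries and 14.3, 18.6, 18.3, 18.6 and 16.1 TPM in the control libraries. Every cKO library lay below every control library, where 1.92% of all tested genes were lower and 62.5% higher without overlap as deposited (64.4% in all). The log2 difference was -0.40 ± 0.10 (SE; limma adjusted p = 0.00205) as deposited, -1.10 ± 0.09 (SE; limma adjusted p = 2.41e-06) relative to the median gene and -0.59 ± 0.08 (SE; limma adjusted p = 4.36e-05) relative to other endothelial genes. Set against Cdh5 in the same library, Robo4 was 0.156 to 0.180 in cKO and 0.216 to 0.266 in control libraries. The call held under every alternative setting that was run, on all 3 scales.

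Vwf and Ramp2 lay on the other side, and they are described in full although this was chosen after their values were seen. Vwf (von Willebrand factor, the clotting protein stored in endothelial granules) was at 16.2, 15.5, 11.4, 14.1 and 12.1 TPM in the cKO libraries and 6.19, 8.17, 9.47, 7.40 and 6.08 TPM in the control libraries. Every cKO library lay above every control library as deposited, as did 62.5% of all tested genes. Vwf was called higher as deposited, at 0.82 ± 0.13 (SE; limma adjusted p = 0.000102), and relative to other endothelial genes, at 0.64 ± 0.11 (SE; limma adjusted p = 0.000309). Relative to the median gene it was not called, at 0.15 ± 0.10 (SE; limma adjusted p = 0.292), and its groups overlapped. Vwf is also made by megakaryocytes: the summed level of 6 platelet and megakaryocyte markers was 68.4 to 90.0 TPM in cKO and 18.8 to 24.6 TPM in control libraries, most of it Pf4 (74.1 ± 10.7 against 19.7 ± 2.10 TPM). All 3 tested markers, Pf4, Ppbp and Itga2b, were called higher as deposited, at log2 differences of 1.86, 0.93 and 0.74, where 76.5% of all tested genes were. Pf4 and Ppbp were also called higher relative to the median gene, where 20.8% were. Gp1bb, Gp9 and Gp6 were under 1 TPM in every library. The cells behind the Pf4 values, and the part of megakaryocytes in the Vwf values, were not tested.

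Ramp2, the partner protein that makes the calcitonin receptor-like receptor bind adrenomedullin, was at 54.9, 55.4, 51.7, 53.7 and 65.6 TPM in the cKO libraries and 36.1, 48.1, 44.4, 35.1 and 35.6 TPM in the control libraries. Ramp2 was called higher as deposited, at 0.49 ± 0.11 (SE; limma adjusted p = 0.00101), and relative to other endothelial genes, at 0.30 ± 0.10 (SE; limma adjusted p = 0.0148), and was not called relative to the median gene, at -0.23 ± 0.09 (SE; limma adjusted p = 0.0586). The deposited call was lost without mitochondrially encoded genes, at 0.056 (limma adjusted p = 0.538). That relative to other endothelial genes was lost with Ddx3y as a covariate (limma adjusted p = 0.0526) and with the cKO libraries 3 and 6 alone (limma adjusted p = 0.0717). Relative to the median gene it was called lower with library weights (limma adjusted p = 0.0236) and without cKO library 7 or control library 9 (limma adjusted p = 0.011 and 0.0322). Of the exon bases of Ramp2, 33.4% are shared with Vps25 on the same strand, and Vps25, itself a gene of the ESCRT-II complex, was at 118 ± 7.46 TPM in cKO and 65.5 ± 4.57 TPM in control hearts. How the authors' counting treated shared bases is not stated in the sources at hand, and the value of Ramp2 is uncertain.

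Eng and Mmrn2 changed side with the scale. Eng (endoglin, a co-receptor for TGF-beta and BMP ligands) was at 54.8, 61.7, 55.1, 53.1 and 52.8 TPM in the cKO libraries and 47.1, 40.5, 50.9, 47.7 and 43.2 TPM in the control libraries, with cKO library 3 the highest. It was called higher as deposited, at 0.27 ± 0.09 (SE; limma adjusted p = 0.0106), called lower relative to the median gene, at -0.46 ± 0.09 (SE; limma adjusted p = 0.00116), and not called relative to other endothelial genes, at 0.08. Mmrn2 (an endothelial matrix protein) was at 13.2, 12.4, 11.1, 11.6 and 11.6 TPM in the cKO libraries and 9.41, 10.98, 10.99, 10.2 and 9.49 TPM in the control libraries. It likewise was called higher as deposited, at 0.21 ± 0.09 (SE; limma adjusted p = 0.037), lower relative to the median gene, at -0.47 ± 0.06 (SE; limma adjusted p = 7.78e-05), and not called relative to other endothelial genes, at 0.03. The deposited call of Mmrn2 was lost when cKO library 1 or 3, or control library 4, 9 or 13, was left out, at limma adjusted p from 0.0624 to 0.0835, and with Ddx3y as a covariate (limma adjusted p = 0.0828). Without mitochondrially encoded genes Mmrn2 was called lower, at -0.21, and Eng was not called, at -0.17. Both deposited calls were lost with the cKO libraries 3 and 6 alone, as was, at a limma adjusted p of 0.0628, that of Eng relative to the median gene.

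The remaining pan-endothelial genes were called lower relative to the median gene only. They were Emcn (endomucin, a capillary and venous sialomucin), Egfl7 (a secreted endothelial matrix factor), Nos3 (endothelial nitric oxide synthase) and S1pr1 (a sphingosine-1-phosphate receptor that stabilises vessels). Their levels as deposited were 28.6 ± 2.79 against 25.3 ± 4.54 TPM, 173 ± 14.7 against 172 ± 23.8 TPM, 11.6 ± 1.52 against 10.8 ± 0.520 TPM and 32.2 ± 6.76 against 32.5 ± 6.12 TPM in cKO against control hearts. Their log2 differences relative to the median gene lay between -0.73 and -0.53. Relative to other endothelial genes, S1pr1 was called lower without cKO library 7 and Egfl7 without control library 9 (limma adjusted p = 0.0119 and 0.0393). By group, the 18 pan-endothelial genes gave 4 higher and 1 lower as deposited, 0 higher (limma; 0 also at an unadjusted p under 0.05) and 16 lower relative to the median gene, and 2 higher and 2 lower relative to other endothelial genes. The shares of all tested genes on these scales were 76.5% higher and 3.46% lower, 20.8% and 20.8%, and 66.1% and 6.0%.

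**Figure D2:**
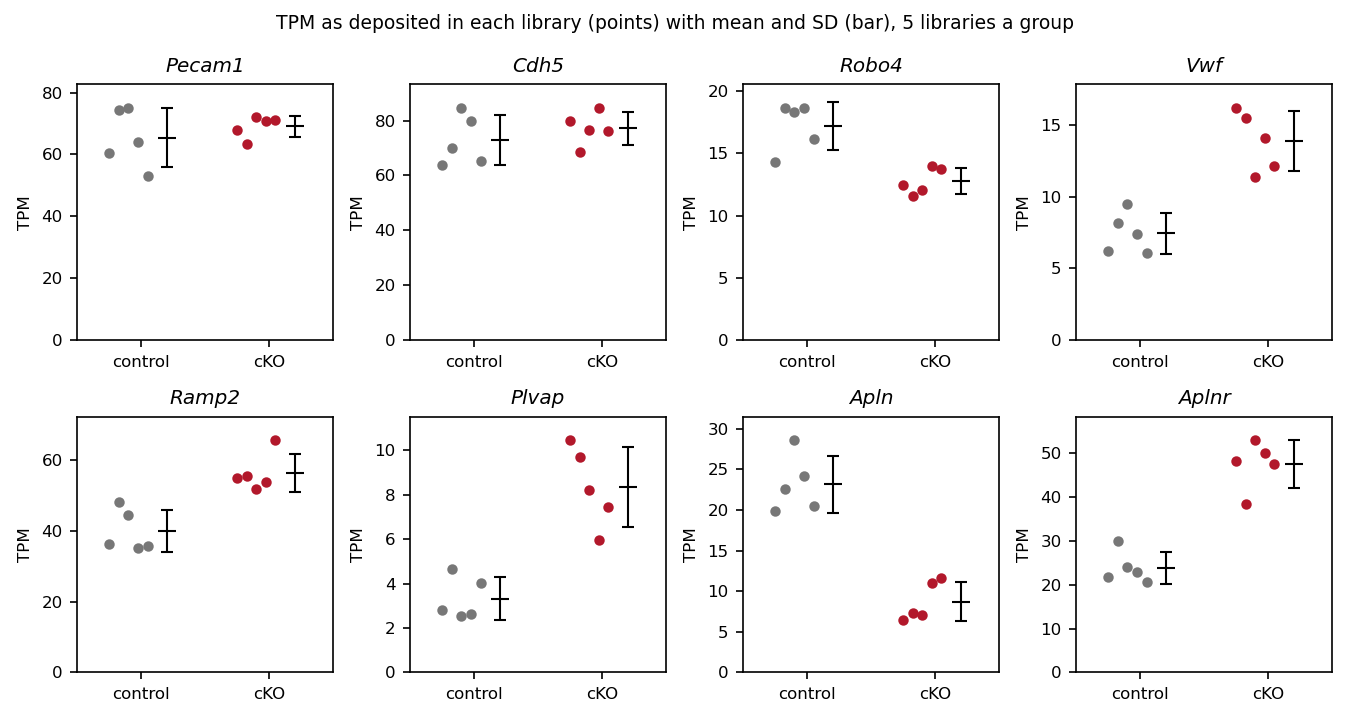
TPM as deposited of 8 endothelial genes in each of 5 control (grey) and 5 cKO (red) libraries, with mean and SD beside the points and each axis starting at 0. The groups overlap for Pecam1 and Cdh5, the cKO libraries lie below the control libraries for Robo4 and Apln, and they lie above them for Vwf, Ramp2, Plvap and Aplnr.

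The capillary genes held both the most abundant members and some of the widest differences. Fabp4, a fatty acid binding protein of heart capillaries, had the highest mean TPM of the 35, followed by Cav1, the coat protein of caveolae. Fabp4 was at 556, 552, 657, 724 and 791 TPM in the cKO libraries and 561, 821, 692, 597 and 533 TPM in the control libraries. Gpihbp1, which carries lipoprotein lipase to the capillary lumen, was at 117, 116, 135, 151 and 162 TPM in the cKO libraries and 129.8, 145, 141, 121 and 109.9 TPM in the control libraries. Ly6c1, a surface protein of capillary and arterial endothelium, was at 155, 137, 173, 146 and 128 TPM in the cKO libraries and 146, 149, 159, 132 and 104 TPM in the control libraries. These 3 overlapped as deposited, with log2 differences of 0.04, 0.07 and 0.11, none of them called. All 3 were called lower relative to the median gene, at -0.70 ± 0.13 (SE; limma adjusted p = 0.00126) for Fabp4, -0.67 ± 0.12 (SE; limma adjusted p = 0.000856) for Gpihbp1 and -0.63 ± 0.09 (SE; limma adjusted p = 0.000244) for Ly6c1. None of the 3 was called relative to other endothelial genes. Fabp4 is also expressed by fat cells and macrophages. The fat cell genes Adipoq and Plin1 were at most 0.310 TPM in any library. The 7 fat cell markers summed to 20.8 to 38.5 TPM in cKO and 18.7 to 23.4 TPM in control libraries. Of these 7, 5 were under 1 TPM in every library. The 1 tested was called higher as deposited, at 0.50, and was not called relative to the median gene. Of 11 tested macrophage markers, 10 were called higher both as deposited and relative to the median gene, against 76.5% and 20.8% of all tested genes. The part of fat cells and macrophages in the Fabp4 values was not tested. The near copy of Ly6c1, Ly6c2, was at 1.34 ± 0.326 TPM in cKO and 1.04 ± 0.397 TPM in control hearts.

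Cav1 was called lower relative to other endothelial genes as well. It was at 138, 130.4, 159.6, 193 and 182 TPM in the cKO libraries and 159.7, 206, 223, 195 and 145 TPM in the control libraries, and as deposited the groups overlapped. Its log2 difference was -0.21 ± 0.14 (SE; limma adjusted p = 0.192) as deposited, -0.94 ± 0.13 (SE; limma adjusted p = 0.000169) relative to the median gene and -0.40 ± 0.10 (SE; limma adjusted p = 0.00348) relative to other endothelial genes. On the last scale the groups did not overlap, at 124 to 173 in the cKO and 178 to 213 in the control libraries, where 3.87% of all tested genes were lower and 50.5% higher without overlap (54.3% in all). As with Icam2, the cKO libraries 1, 3 and 5 held the lower values and 6 and 7 the higher ones. Other members split these libraries the same way as deposited, among them Fabp4, Gpihbp1, Rgcc and Egfl7, not called relative to other endothelial genes. Others, such as Flt1, Eng, Plvap, Notch1 and Sox17, split them the other way.

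Plvap, Aplnr and Rgcc were the capillary genes not called lower relative to the median gene. The first 2 are given per library by a choice made after their values were seen. Plvap builds the diaphragms of fenestrae and caveolae in leaky vessels. It was at 10.5, 9.70, 8.21, 5.95 and 7.45 TPM in the cKO libraries and 2.80, 4.68, 2.53, 2.61 and 4.01 TPM in the control libraries, so each cKO library lay above each control library. Its log2 difference was 1.12 ± 0.17 (SE; limma adjusted p = 5.5e-05) as deposited, 0.50 ± 0.16 (SE; limma adjusted p = 0.0287) relative to the median gene and 0.95 ± 0.19 (SE; limma adjusted p = 0.000712) relative to other endothelial genes. The call relative to the median gene was lost when cKO library 1 or 3, or control library 4, 8 or 9, was left out (limma adjusted p from 0.0589 to 0.0703), without a filter on low values (limma adjusted p = 0.0728), with Ddx3y as a covariate (limma adjusted p = 0.12) and with the cKO libraries 3 and 6 alone (limma adjusted p = 0.226), while the other 2 calls held under every alternative. Plvap overlaps Gtpbp3 on the opposite strand with 0 shared exon bases, and Gtpbp3 was at 8.94 ± 0.602 TPM in cKO and 4.37 ± 0.459 TPM in control hearts.

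Aplnr, the receptor for apelin (chr2:85136225-85139923 (+)), was at 48.3, 38.5, 53.0, 50.0 and 47.6 TPM in the cKO libraries and 21.7, 29.9, 24.1, 22.9 and 20.7 TPM in the control libraries. All cKO libraries lay above all control libraries, by a mean of 1.99-fold. It was called higher as deposited, at 0.97 ± 0.11 (SE; limma adjusted p = 8.21e-06), and relative to other endothelial genes, at 0.78 ± 0.09 (SE; limma adjusted p = 9.48e-06), and these calls held under every alternative. It missed the threshold relative to the median gene, at 0.25 ± 0.10 (SE; limma adjusted p = 0.0598). Leaving out cKO library 3 (limma adjusted p = 0.00917) or control library 6 (limma adjusted p = 0.0284) brought it past the threshold there, as did library weights (limma adjusted p = 0.0416) and upper-quartile scaling (limma adjusted p = 0.0364). Rgcc, a cell cycle regulator of capillary cells, was at 18.0 ± 5.24 TPM in cKO and 15.2 ± 4.14 TPM in control hearts and was not called on any of the 3 scales. Its log2 difference relative to the median gene was -0.47 ± 0.20 (SE; limma adjusted p = 0.091), with an interval of -0.91 to -0.02, and it was called lower there with library weights (limma adjusted p = 0.0437) and without cKO library 7 (-0.60, limma adjusted p = 0.0264). Of the 7 capillary genes, 2 were called higher and 0 lower as deposited (limma; 0 lower also at an unadjusted p under 0.05), 1 and 4 relative to the median gene, and 2 and 1 relative to other endothelial genes. All tested genes gave 76.5% higher and 3.46% lower, 20.8% and 20.8%, and 66.1% and 6.0% on these scales.

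The ligand moved against the receptor. Apln, which encodes apelin and marks tip cells and growing capillaries (chrX:48025146-48034853 (-)), was at 6.44, 7.38, 7.03, 10.97 and 11.6 TPM in the cKO libraries and 19.9, 22.6, 28.6, 24.2 and 20.5 TPM in the control libraries. The highest cKO library lay below the lowest control library. The mean was 2.67-fold lower in cKO hearts as deposited, with a log2 difference of -1.34 ± 0.16 (SE; limma adjusted p = 8.7e-06), the lowest of the 35. The difference relative to the median gene was -2.02 ± 0.17 (SE; limma adjusted p = 3.3e-06), and relative to other endothelial genes it was -1.52 ± 0.15 (SE; limma adjusted p = 3.57e-06). All 3 calls held under every alternative setting, and with the cKO libraries 3 and 6 alone the values were -1.26, -1.88 and -1.41. The cKO libraries themselves differed: 1, 3 and 5 were at 7.38 TPM or less, and 6 and 7 lay above them.

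The ratio of receptor to ligand needs no scale and showed the same. Aplnr to Apln was 7.50, 5.22, 7.55, 4.56 and 4.10 in the cKO libraries and 1.09, 1.32, 0.841, 0.946 and 1.01 in the control libraries. The lowest cKO ratio was thus above the highest control ratio, and the mean ratio was 5.55-fold higher in cKO hearts. Set against Cdh5, Apln was 0.0806 to 0.152 in cKO and 0.303 to 0.338 in control libraries, and Aplnr was 0.561 to 0.694 and 0.284 to 0.426.

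The Notch genes of the arterial and tip group, Dll4 and Notch1, were not called relative to other endothelial genes. Dll4, the Notch ligand of tip and arterial cells, was at 6.88, 6.14, 6.69, 6.83 and 6.62 TPM in the cKO libraries and 4.28, 5.30, 6.22, 4.59 and 4.82 TPM in the control libraries. The cKO values were close together and all but 1 control value lay below them. Dll4 was called higher as deposited, at 0.35 ± 0.10 (SE; limma adjusted p = 0.00691), and lower relative to the median gene, at -0.29 ± 0.08 (SE; limma adjusted p = 0.0139), and was not called relative to other endothelial genes, at 0.18 ± 0.08 (SE; limma adjusted p = 0.072). With the cKO libraries 3 and 6 alone neither call held (limma adjusted p = 0.0831 and 0.146). The deposited call was also lost without mitochondrially encoded genes, at -0.038 (limma adjusted p = 0.76), and the other with Ddx3y as a covariate (limma adjusted p = 0.0629). Relative to other endothelial genes Dll4 was called higher without control library 13 (limma adjusted p = 0.0493) and when scaled to the median of the reference genes (limma adjusted p = 0.046). On that scale its groups did not overlap, at 6.08 to 6.30 in the cKO and 4.77 to 5.95 in the control libraries. There 50.5% of all tested genes were higher without overlap. Notch1, its receptor, was at 7.70 ± 1.88 TPM in cKO and 5.55 ± 0.492 TPM in control hearts, with a range of 4.89 to 9.67 TPM over the cKO libraries. It was called higher as deposited, at 0.38 ± 0.15 (SE; limma adjusted p = 0.0284), a call lost when any of 6 single libraries was left out (cKO 1, 3 or 5, control 6, 9 or 13; limma adjusted p from 0.0533 to 0.0750), without a filter (limma adjusted p = 0.0714), with Ddx3y as a covariate (limma adjusted p = 0.0894) and without mitochondrially encoded genes (-0.0062, limma adjusted p = 0.979). It was called on neither of the other scales, but without cKO library 7 it was called higher relative to other endothelial genes (limma adjusted p = 0.0285). Of the exon bases of Notch1, 7.5% are shared with 0610009E02Rik on the opposite strand. That gene was at 8.64 ± 1.74 TPM in cKO and 4.83 ± 1.78 TPM in control hearts, and its part in the Notch1 values was not tested. The ratio of Dll4 to Notch1 was 0.711 to 1.35 in cKO and 0.682 to 1.07 in control libraries. Of the 3 genes of this group, 2 were called higher and 1 lower as deposited, 0 and 2 relative to the median gene, and 0 and 1 relative to other endothelial genes (limma; 0 higher also at an unadjusted p under 0.05 on both). On these scales 76.5% of all tested genes were higher and 3.46% lower, 20.8% and 20.8%, and 66.1% and 6.0%.

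**Figure D3:**
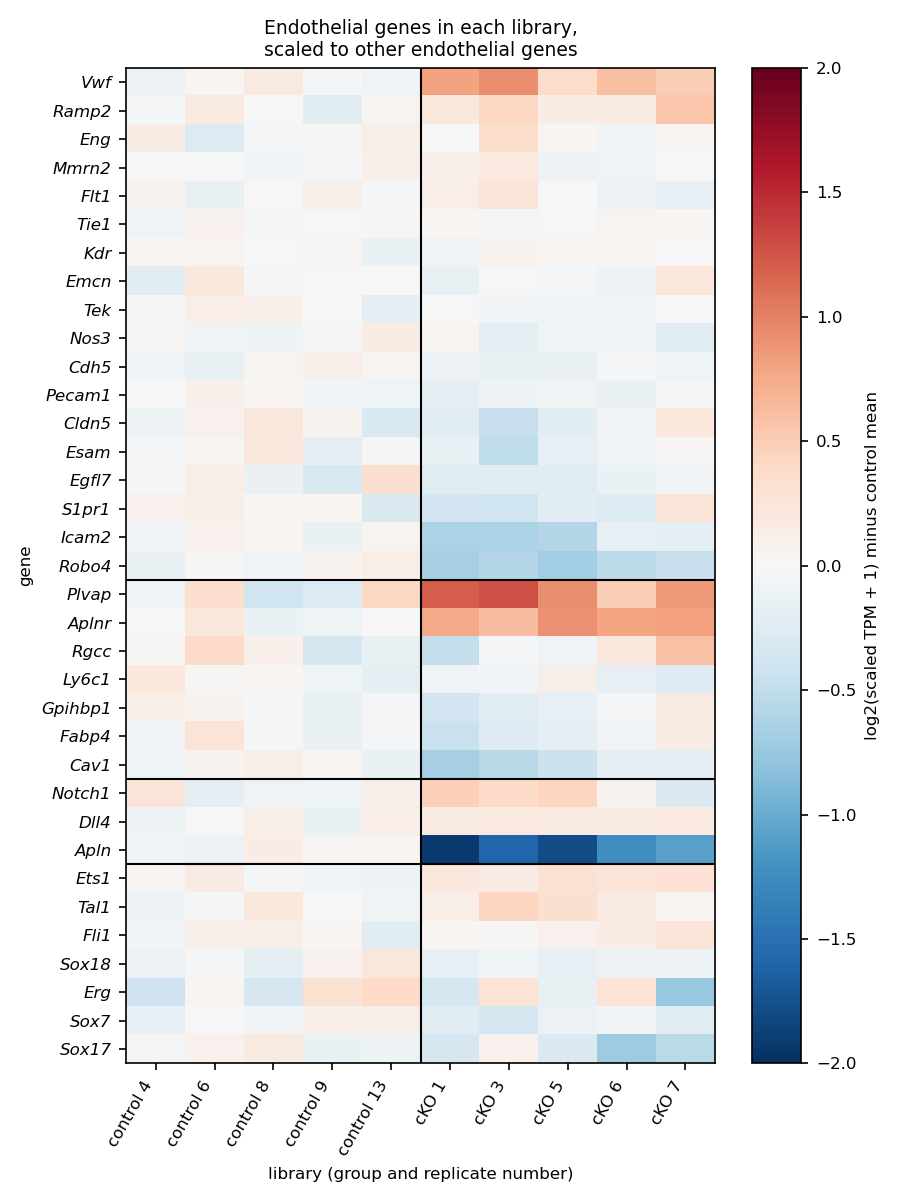
Log2(TPM + 1) of each endothelial gene in each library after scaling to 27 other endothelial genes, minus the mean of the control libraries (colour bar, from -2 to 2), with genes in their 4 groups and a vertical line between control and cKO libraries. Apln and Robo4 are below the control mean in all 5 cKO libraries, Plvap, Aplnr and Vwf are above it, and Icam2, Cav1 and Apln are lower in cKO libraries 1, 3 and 5 than in 6 and 7.

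Among the transcription factors, the 3 SOX genes, which act together in vessel formation, were not called as deposited. Sox7 was at 13.2, 10.4, 14.0, 14.8 and 12.5 TPM in the cKO libraries and 10.6, 14.0, 14.0, 14.4 and 12.3 TPM in the control libraries. Sox17, the one with arterial expression, was at 8.93, 10.8, 9.12, 6.69 and 7.22 TPM in the cKO libraries and 8.73, 11.1, 12.5, 9.08 and 7.79 TPM in the control libraries. Sox18 was at 23.2, 21.6, 22.8, 24.6 and 23.0 TPM in the cKO libraries and 18.6, 23.2, 21.6, 24.2 and 22.5 TPM in the control libraries. The groups overlapped for each of the 3. Each was called lower without overlap relative to the median gene, at -0.70 ± 0.10 (SE; limma adjusted p = 0.000203) for Sox7, -0.85 ± 0.11 (SE; limma adjusted p = 6.73e-05) for Sox17 and -0.64 ± 0.08 (SE; limma adjusted p = 9e-05) for Sox18. On the scale of other endothelial genes Sox7 was called lower without cKO library 6 or control library 4 (limma adjusted p = 0.0331 in both). Sox17 was also called lower relative to other endothelial genes, at -0.36 ± 0.13 (SE; limma adjusted p = 0.0303). That call was lost when cKO library 6 or 7, or control library 6 or 8, was left out (limma adjusted p from 0.0624 to 0.0745), without a filter (limma adjusted p = 0.0714), with Ddx3y as a covariate (limma adjusted p = 0.122), when scaled to the median of the reference genes (limma adjusted p = 0.0847) and with the cKO libraries 3 and 6 alone (limma adjusted p = 0.197).

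Of the 3 ETS genes, Ets1 was the 1 called higher as deposited. It was at 37.7, 32.0, 39.4, 39.0 and 37.3 TPM in the cKO libraries and 25.8, 32.7, 30.0, 26.4 and 21.8 TPM in the control libraries, and only cKO library 3 reached into the control range. It was called higher as deposited, at 0.44 ± 0.11 (SE; limma adjusted p = 0.00263), and relative to other endothelial genes, at 0.24 ± 0.07 (SE; limma adjusted p = 0.00827), but lower relative to the median gene, at -0.28 ± 0.08 (SE; limma adjusted p = 0.0179). With the cKO libraries 3 and 6 alone none of these calls held (limma adjusted p from 0.0720 to 0.127). The deposited call of Ets1 was also lost without mitochondrially encoded genes, at 0.0019 (limma adjusted p = 0.986), and its call relative to the median gene with Ddx3y as a covariate (limma adjusted p = 0.0565). Fli1 was at 10.8, 9.46, 11.1, 11.9 and 11.9 TPM in the cKO libraries and 7.82, 10.4, 10.9, 9.39 and 6.42 TPM in the control libraries, with overlap. It was not called as deposited, at 0.29 ± 0.13 (SE; limma adjusted p = 0.0597), and was called lower relative to the median gene, at -0.38 ± 0.11 (SE; limma adjusted p = 0.0129), a call lost with Ddx3y as a covariate (limma adjusted p = 0.0546) and with the cKO libraries 3 and 6 alone (limma adjusted p = 0.113). As deposited, Fli1 was called higher when cKO library 3, or control library 6 or 8, was left out (limma adjusted p from 0.0265 to 0.0426). Erg, another ETS factor of endothelium, spread most widely of the 7, at 7.42 to 17.4 TPM in cKO and 7.95 to 15.3 TPM in control libraries. It was called lower only relative to the median gene, at -0.64 ± 0.22 (SE; limma adjusted p = 0.0363), and leaving out any of 6 single libraries (cKO 1, 5 or 7, control 6, 9 or 13) ended that call (limma adjusted p from 0.0643 to 0.0867), as did library weights (limma adjusted p = 0.0645) and no filter (limma adjusted p = 0.0927). The value of Erg there was -0.31 with Ddx3y as a covariate (limma adjusted p = 0.301) and -0.21 with the cKO libraries 3 and 6 alone (limma adjusted p = 0.56).

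Tal1, a factor shared by endothelium and early blood cells, had the lowest level of the 35, at 2.30 ± 0.302 TPM in cKO and 1.62 ± 0.382 TPM in control hearts. Tal1 was called higher as deposited, at 0.34 ± 0.13 (SE; limma adjusted p = 0.0248), and on neither other scale, and leaving out cKO library 3 or 5, or control library 4 or 13, ended the call (limma adjusted p from 0.0592 to 0.0641), as did keeping the cKO libraries 3 and 6 alone (limma adjusted p = 0.0675) and no filter (limma adjusted p = 0.0577). Without mitochondrially encoded genes the value of Tal1 was 0.057 (limma adjusted p = 0.754). Ets1, Fli1 and Tal1 are also expressed by blood cells. The summed level of 12 macrophage markers was 434 to 639 TPM in cKO and 71.6 to 98.3 TPM in control libraries, and none of 8 lymphocyte markers had enough TPM to be tested (sums of 3.45 to 5.78 and 1.28 to 2.06 TPM). Sums of 7 erythroid markers overlapped, at 1738 to 9051 TPM in cKO and 3445 to 5923 TPM in control libraries. Those of 6 platelet and megakaryocyte markers were 68.4 to 90.0 TPM in cKO and 18.8 to 24.6 TPM in control libraries. The part of these cells in the 3 factors was not tested. The 7 factors gave 2 higher and 0 lower as deposited, 0 and 6 relative to the median gene, and 1 and 1 relative to other endothelial genes (limma; the 2 counts of 0 are 0 also at an unadjusted p under 0.05). The shares of all tested genes were 76.5% higher and 3.46% lower, 20.8% and 20.8%, and 66.1% and 6.0% in the same order.

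In sum over its genes, the pan-endothelial group held 672 to 799 TPM in cKO and 631 to 783 TPM in control libraries, with overlap. The same sums relative to the median gene were 513 to 659 and 857 to 929, without overlap. Ratios to other cells of the heart within each library, which need no scale, overlapped for muscle markers and were lower in cKO hearts for fibroblast and macrophage markers. Per 100 TPM of 12 cardiomyocyte markers it held 1.88 ± 0.108 TPM in cKO and 1.65 ± 0.0644 TPM in control hearts, and the libraries overlapped. Per 100 TPM of 10 fibroblast markers it held 32.3 ± 3.82 and 66.0 ± 6.60 TPM. Per 100 TPM of macrophage markers it held 141 ± 25.1 and 823 ± 43.3 TPM, and neither of these last 2 ratios overlapped. Fibroblast markers were called higher in 9 of 10 cases as deposited and in 8 of 10 relative to the median gene, where the other 2 were called lower, and macrophage markers in 10 of 11 on both scales. Over all tested genes, 76.5% were called higher and 3.46% lower as deposited, and 20.8% each way relative to the median gene. The lung surfactant gene Sftpc was listed at 0 in all libraries. The 6 lung epithelium markers, Sftpc among them, summed to 129 to 169 TPM in cKO and 183 to 277 TPM in control libraries, without overlap. Of these 6, 3 were under 1 TPM in every library, so few genes carry the sum. Of the 2 tested, 1 was called higher and 1 lower as deposited, and 1 was called lower relative to the median gene. The cells behind these values were not tested.

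Genes that work with the members were read from lists that share no gene with the 35. For the counts that follow, the shares of all tested genes were 76.5% called higher and 3.46% lower as deposited, and 20.8% each way relative to the median gene. Of the 27 tested other endothelial genes, 9 were called higher and 1 lower as deposited, and 0 higher (limma; 0 also at an unadjusted p under 0.05) and 23 lower relative to the median gene, with medians of 0.10 and -0.58 beside 0.11 and -0.60 for the members. The strongest by adjusted p relative to the median gene were Palmd (-1.14), Cavin2, a caveola protein that works with Cav1 (-0.91), Rasip1 (-0.71) and Cd93 (-0.67). Of these, Palmd, Cavin2 and Rasip1 were also called lower relative to the mean of their own list, which includes them. Palmd alone was called lower as deposited, at -0.42.

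In the VEGF, angiopoietin and apelin pathway outside the members, 14 genes were tested. As deposited 6 were called higher and 1 lower, where 76.5% and 3.46% of all tested genes were. Relative to the median gene 1 was called higher and 7 lower, where 20.8% and 20.8% were. Hif1a, the hypoxia-inducible factor that acts on Vegfa, was the 1 called higher on both, at 124 ± 11.9 TPM in cKO and 35.9 ± 4.0 TPM in control hearts (log2 difference 1.03 ± 0.06 (SE; limma adjusted p = 3.73e-07) relative to the median gene). Its endothelial relative Epas1 was called lower relative to the median gene, at -0.86, as were Vegfa at -0.74 and the co-receptor Nrp2 at -0.71, and none of these 3 was called as deposited. Vegfa, the main ligand of Kdr, was at 158 ± 20.8 TPM in cKO and 157 ± 7.61 TPM in control hearts.

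In Notch signalling, 9 of 14 tested genes were called higher and 0 lower as deposited (limma; 0 lower also at an unadjusted p under 0.05), and 2 and 5 relative to the median gene. Rbpj, the DNA-binding partner of Notch, was higher on both scales, at 1.28 and 0.59. The targets Hey1 and Nrarp and the receptor Notch4 were called lower relative to the median gene, at -0.88, -0.74 and -0.72, and were not called as deposited. Around Eng, the list of TGF-beta and BMP genes gave 9 higher and 1 lower of 12 as deposited and 4 and 2 relative to the median gene. Id1, a BMP target of endothelium, was called lower on both, at -0.39 and -1.12, while Id2 and the inhibitory Smad6 were called higher on both, at 1.01 and 0.87 relative to the median gene.

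Over all tested genes, 76.5% were called higher and 3.46% lower as deposited, and 20.8% each way relative to the median gene. Of 9 tested capillary transport genes, 5 were called higher and 0 lower as deposited, and 0 and 5 relative to the median gene (limma; both counts of 0 are 0 also at an unadjusted p under 0.05). Among the 5 called lower were the fatty acid transporter Cd36 (-0.54), the capillary factors Meox2 (-0.71) and Tcf15 (-0.56) and the water channel Aqp1 (-0.37). Of 9 arterial genes, 1 was called higher and 3 lower relative to the median gene, and 6 and 0 as deposited (limma; 0 lower also at an unadjusted p under 0.05). The netrin receptor Unc5b was higher on both scales, and Cxcl12, Sema3g and Gja5 were lower relative to the median gene. Of 7 tip cell genes, 1 (Cxcr4, at 0.82) was called higher and 3 (Mcam, Trp53i11 and Pdgfb) were called lower relative to the median gene, and 6 and 0 as deposited (limma; 0 lower also at an unadjusted p under 0.05).

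Of 9 tested endothelial activation genes, 8 were called higher as deposited, where 76.5% of all tested genes were, and 5 relative to the median gene, where 20.8% were, with 0 called lower on either scale (limma; at an unadjusted p under 0.05, 0 were lower as deposited and 1 relative to the median gene). Cxcl10, a chemokine induced by interferon, was at 22.3 ± 6.49 TPM in cKO and 0.369 ± 0.121 TPM in control hearts. Ccl2, a monocyte chemokine, was at 20.3 ± 7.07 TPM in cKO and 2.80 ± 1.28 TPM in control hearts, and Vcam1, a leukocyte adhesion molecule, at 17.6 ± 2.52 TPM in cKO and 5.98 ± 1.15 TPM in control hearts. These genes are also expressed by fibroblasts and macrophages, whose markers were higher in the same hearts, and the part of those cells was not tested. Among 13 tested endothelial transcription factors outside the members, 10 were called higher and 1 lower as deposited and 1 and 2 relative to the median gene, where Klf4 (-1.23) and Klf2 (-0.48), both induced by blood flow, were the 2 called lower. Klf4 was called lower as deposited as well, at -0.54. The plot of lists shows the 4 groups of members beside these lists.

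**Figure D4:**
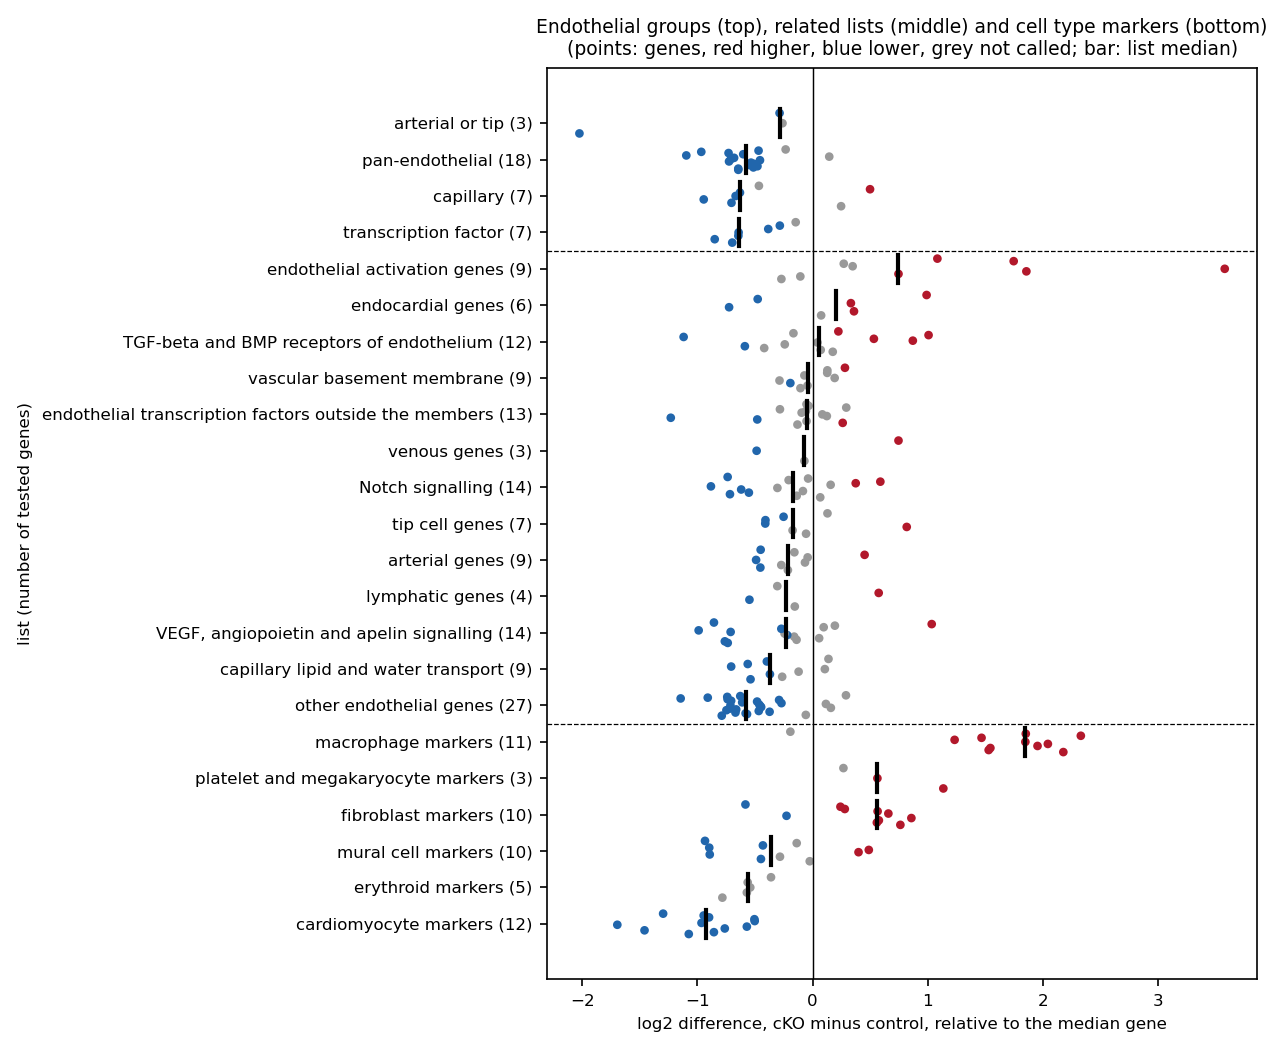
Log2 difference (cKO minus control) relative to the median gene of each tested gene (points; red called higher, blue called lower, grey not called) in the 4 groups of endothelial members (top), lists of related genes (middle) and markers of other cell types (bottom), with a bar at the list's median. The medians of the member groups lie between -0.64 and -0.29, that of other endothelial genes at -0.58, that of endothelial activation genes at 0.75 and that of macrophage markers at 1.85.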

How the data were processed

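Total RNA of whole hearts was sequenced from libraries made with the VAHTS Universal V10 kit from 1 μg of RNA, per the labels' protocols, in 10 mice (5 cKO, 5 control; their titles give group and replicate number). The values are TPM as the authors deposited them in 1 table. TPM does not keep the number of reads, so depth is unknown and intervals of counting error were not computed. The submitters' processing notes name build mm10 and the tools STAR 2.7.1, HTSeq 0.11.2, DESeq2 1.22.2, Trimmomatic 0.32, Picard 1.96, FastQC 0.11.7 and bcl2fastq. Annotation release, gene lengths and strand setting: not given in the sources used here. Reads of antisense or overlapping genes therefore cannot be told apart. Gene positions were taken from GENCODE M21 (GRCm38, which is mm10), with 51460 genes (92.1%) matched by gene ID.

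Values were tested as log2(TPM + 1) by two-sided tests in limma 3.58.1 (R 4.3.3), with a linear model and a mean-variance trend, over 13282 genes with at least 1 TPM in at least 5 of 10 libraries, with Benjamini-Hochberg adjustment over all of them and a threshold of 0.05. The 3 scales were TPM as deposited, TPM over a size factor per library (median of ratios, 16393 genes), and TPM divided by the geometric mean of 27 tested other endothelial genes. Leaving out a library lowered the filter to 4 libraries, and keeping the cKO libraries 3 and 6 alone lowered it to 2. The fit was tested on simulated data. Single values were compared by exact permutation over 252 splits. Tables were handled with Python 3.11.15, pandas 2.3.3, numpy 2.4.6 and scipy 1.17.1, and figures drawn with matplotlib 3.10.9. No pair of libraries held identical values.

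The members and all lists were chosen with earlier results of these data known, so none of their counts is independent evidence. Values in every library were given for Pecam1, Cdh5, the 4 members of each group with the lowest adjusted p among those called relative to the median gene, and members called in opposite directions on 2 scales; of each related list at most 4 genes with the lowest adjusted p were named. For 1 related list, 1 of its 4 genes is not reported here; all members are. Promoter windows came from RefSeq (GRCm38.p6), and printed stretches end where the annotated gene begins. Alternatives were the pseudocount (0.1), no filter, no variance trend, library weights, a Ddx3y covariate, removal of mitochondrially encoded genes, other scalings and leaving out each library. Comparing the cKO libraries 3 and 6 alone with all controls was added after seeing the data.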

Additional observations from a re-analysis of the deposited data

Results flagged for a closer look

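Among 80 groups of 5 libraries examined (35 genes and 5 summed levels in cKO and in control hearts), 4 held 1 library far from the other 4, by a gap larger than 0.71 of the group's range. Chance alone gives about 1 in 20 groups. Eng was high in cKO library 3, at 61.7 TPM. Esam was low in the same library, at 34.3 TPM, as was Ets1, at 32.0 TPM. Ramp2 was high in cKO library 7, at 65.6 TPM. Of the 4 values, 3 came from cKO library 3, in both directions. Without that library Eng, Ets1 and Esam kept their calls, or lack of one, on all 3 scales. Without cKO library 7, Ramp2 kept its calls as deposited and relative to other endothelial genes and was also called lower relative to the median gene, at -0.30 (limma adjusted p = 0.011).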

How the results depend on the processing

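No paired analysis was possible because the groups share only 1 replicate number (6). As deposited, the counts of members were 10 higher and 2 lower, and without mitochondrially encoded genes 3 and 22. There 18 members changed sign with a call on one side: Pecam1 -0.36, Cdh5 -0.36, Kdr -0.23, Tek -0.28, Tie1 -0.23, Emcn -0.25, Egfl7 -0.43, Eng -0.17, Esam -0.42, Cldn5 -0.40, Nos3 -0.35, Mmrn2 -0.21, Fabp4 -0.41, Gpihbp1 -0.38, Ly6c1 -0.34, Notch1 -0.0062, Dll4 -0.038 and Sox18 -0.37. With the cKO libraries 3 and 6 alone, fewer libraries gave 5 higher as deposited, 0 relative to the median gene and 3 relative to other endothelial genes. Relative to the median gene, the 1 member called higher became 0 without a filter, 2 with library weights, 0 with a Ddx3y covariate and 2 with upper-quartile scaling, and 0 to 2 when 1 library was left out. The causes were not tested. Over all alternatives, 535 of 595 single values as deposited, 596 of 630 single values relative to the median gene and 612 of 630 relative to other endothelial genes kept their side of the threshold. Without a known depth, the precision of low genes such as Tal1 cannot be stated, and all calls are limited by 5 libraries a group and by sex markers that differ between the groups (mixed in cKO, Ddx3y alone in control).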

Other observations

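Endocardial, lymphatic and venous genes gave calls in both directions relative to the median gene. As deposited, 76.5% of all tested genes were called higher and 3.46% lower, and relative to the median gene 20.8% each way. Of 6 tested endocardial genes, 3 were called higher and 2 lower there, with Tmem108 at 0.99, Gata4 at 0.33, Bmper at -0.48 and Cytl1 at -0.72, and as deposited 4 were called higher. Gata4 is also a gene of heart muscle and fibroblasts. Of 4 tested lymphatic genes, Pdpn, which fibroblasts share, was called higher on both scales (0.57 relative to the median gene), Lyve1 was called lower relative to the median gene (-0.55) but not as deposited, and Prox1 (-0.15) and Ccl21a (-0.31) were not called there. Of 3 tested venous genes, Ephb4 was called lower (-0.49) and Vcam1 higher (0.75) relative to the median gene, and all 3 were called higher as deposited.

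Matrix and mural cells around the endothelium gave mixed calls. The shares of all tested genes were 76.5% higher and 3.46% lower as deposited, and 20.8% each way relative to the median gene. Relative to other endothelial genes they were 66.1% and 6.0%. All 9 vascular basement membrane genes were called higher as deposited, but relative to the median gene only Igfbp7 was called higher (0.28) and only Lama4 lower (-0.19), with a list median of -0.04. Of 10 mural cell markers, 5 were called lower relative to the median gene, among them Abcc9 (-0.89), Vtn (-0.93) and Rgs5 (-0.45). The 2 called higher there were Cspg4 (0.40) and Acta2 (0.49). As deposited, 6 of the 10 were called higher and 0 lower (limma; 0 lower also at an unadjusted p under 0.05), and relative to other endothelial genes 4 were called higher and 3 lower. Rgs5 was among those called higher as deposited, at 0.29.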
